A study of Homo sapiens with 8 samples.

Results

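The genes described here are 34 entries of the gene table that carry the symbol of a small nucleolar RNA (snoRNA) host gene, out of 47591 entries in all. They were chosen by name only. Each has a symbol made of SNHG and a number, or is GAS5, EPB41L4A-AS1, ZFAS1, DANCR, TAF1D or CYTOR. Of these, 30 had a mean normalized count of at least 10 over the 8 libraries and were tested together with all 18947 genes that passed this filter. The other 4 were at or near zero. SNHG18, SNHG26 and SNHG27 were listed at 0 in every library, and SNHG22 lay between 0 and 12.2.

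A snoRNA host gene carries the sequence of a small RNA inside an intron. When the transcript is spliced, the intron is released, opened and trimmed until only the protein-bound snoRNA is left. Box C/D snoRNAs guide methylation of ribosomal RNA, box H/ACA snoRNAs guide pseudouridylation, and the related scaRNAs guide the same changes in the RNAs of the spliceosome. Many host genes start with a cytosine and a run of pyrimidines, the 5′ terminal oligopyrimidine (TOP) sequence that they share with the genes of ribosomal proteins. In many noncoding hosts the spliced RNA left behind is translated over short open frames and removed by nonsense-mediated decay.

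The libraries were made from polyadenylated RNA of SH-SY5Y, a human neuroblastoma cell line. The G2 line gave 3 libraries. In it a CRISPR/Cas9 guide had been directed at PRPF40B, a gene for a splicing factor related to the yeast U1 snRNP protein Prp40. The controls were 3 libraries of the SCR line, which had received a scrambled guide, and 2 libraries of unmodified WT cells. The knockout lines had been selected with puromycin and raised from single colonies by limiting dilution, and whether SCR was cloned in this way is not given in the sources used here. A difference of G2 from the controls thus cannot be told apart from a difference between isolates. SCR and G2 were also kept in puromycin during culture, which is not described for WT. The labels call the libraries of a line biological replicates without saying how the cultures were separated, so the p-values below measure the spread between these libraries.

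PRPF40B was checked first. Its normalized count was 840, 841 and 918 in the G2 libraries, 1686, 1672 and 1669 in SCR, and 1972 and 1668 in WT. G2 was below every control library, by 48.3% against SCR and 52.4% against WT (exact two-sided permutation test of the 3 G2 against the 5 control libraries, p = 0.0357, the smallest p this design can give).

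The label of the genes was checked against the annotation. In GENCODE 44 and RefSeq (GRCh38), 33 of the 34 hold at least 1 snoRNA or scaRNA on their own strand, and 16 hold exactly 1. This counts any within the span of the gene. In introns of the gene's canonical transcript lay 0 of 8 for TAF1D, 0 of 1 for SNHG15 and 35 of 84 for SNHG14. For GAS5 10 of 11 did, and for SNHG11 and SNHG25 1 of 2 each, while in the rest all did. CYTOR holds none, so it is a host gene here by the naming rule alone. TAF1D is a protein-coding gene, for a subunit of the RNA polymerase I selectivity factor, and the other 33 are annotated as long noncoding RNAs. In 6 entries the counting unit joins the host with further genes. These are SNHG3 with RCC1, SNHG4 with MATR3, SNHG10 with SCARNA13, SNHG14 with SNRPN, SNURF and IPW, SNHG20 with SEC14L1, and SNHG28 with VSIG8, and their values cannot be split between the genes. A further limit is that 16 of the 34 overlap a coding gene on the other strand. The kit marked strand, but the strand setting of the counting is not given in the sources used here.

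The small RNAs held by the 4 hosts that were lower in G2 than in both controls, and not different between the controls by the same thresholds, are shown first, since they are what these transcripts carry (GENCODE 44, GRCh38, written 5′ to 3′). Capitals mark the exact letters TGATGA (C box) in the first 20 bases and CTGA (D box) in the last 20 bases of box C/D snoRNAs, and the last ACA within the final 8 bases of the others. All searches were made on the strand of the snoRNA.
SNORA13 in EPB41L4A-AS1 (chr5:112161485-112161617, plus strand): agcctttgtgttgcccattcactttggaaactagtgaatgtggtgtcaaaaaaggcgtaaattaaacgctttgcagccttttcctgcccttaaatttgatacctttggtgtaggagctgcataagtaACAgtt
SNORA24 in SNHG8 (chr4:118279190-118279320, plus strand): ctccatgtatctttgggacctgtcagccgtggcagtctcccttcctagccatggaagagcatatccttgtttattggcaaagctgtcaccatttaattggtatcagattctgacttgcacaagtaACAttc
SCARNA13 in SNHG10 (chr14:95533355-95533629, minus strand): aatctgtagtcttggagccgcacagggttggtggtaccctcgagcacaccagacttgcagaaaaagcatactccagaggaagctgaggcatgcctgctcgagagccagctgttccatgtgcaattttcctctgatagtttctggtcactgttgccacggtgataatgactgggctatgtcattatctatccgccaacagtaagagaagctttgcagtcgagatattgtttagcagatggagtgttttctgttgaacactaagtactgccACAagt
SNORD1A in SNHG16 (chr17:76561634-76561705, plus strand): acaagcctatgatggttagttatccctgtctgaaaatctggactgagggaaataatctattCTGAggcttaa
SNORD1B in SNHG16 (chr17:76561109-76561192, plus strand): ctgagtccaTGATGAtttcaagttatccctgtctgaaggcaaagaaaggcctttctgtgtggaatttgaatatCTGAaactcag
SNORD1C in SNHG16 (chr17:76558791-76558868, plus strand): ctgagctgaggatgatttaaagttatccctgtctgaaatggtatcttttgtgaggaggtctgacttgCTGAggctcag
Of all annotated SNORD transcripts, 65.5% held TGATGA and 90.1% held CTGA in these windows, and 82.2% of the annotated SNORA transcripts held ACA at their end. In SNORA13, SNORA24 and SCARNA13 the ACA was followed by 3 bases. The exact C box letters were found in SNORD1B and not in SNORD1A or SNORD1C, and the D box letters were found in all 3.

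The annotated starts of host genes are shown next, because TOP genes are defined by their first bases. Each window holds 10 bases before and 20 bases from the start on (RefSeq, GRCh38.p14, 5′ to 3′ on the gene's strand). Capitals mark a C at the first base followed by at least 4 pyrimidines (CNNNN with each N a C or a T), searched on the strand of the gene.
EPB41L4A-AS1 (chr5:112160516-112160545, plus strand): tcatgaattctgtcgggtcccaaaatacgt
SNHG8 (chr4:118278752-118278781, plus strand): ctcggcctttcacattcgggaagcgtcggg
SNHG10 (chr14:95534853-95534882, minus strand): cttatgccggagcctcatcctactgcctta
SNHG16 (chr17:76557754-76557783, plus strand): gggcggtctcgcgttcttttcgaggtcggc
GAS5 (chr1:173869026-173869055, minus strand): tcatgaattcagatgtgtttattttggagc
SNHG19 (chr16:2155339-2155368, minus strand): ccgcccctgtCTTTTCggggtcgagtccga
SNHG31 (chr2:214810219-214810248, plus strand): gcggggcctgaagcccctctgggctgcctg
SNHG12 (chr1:28581854-28581883, minus strand): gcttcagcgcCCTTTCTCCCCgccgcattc
SNHG5 (chr6:85678714-85678743, minus strand): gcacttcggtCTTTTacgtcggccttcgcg
SNHG32 (chr6:31834906-31834935, plus strand): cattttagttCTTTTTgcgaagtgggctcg
SNHG4 (chr5:139274091-139274120, plus strand): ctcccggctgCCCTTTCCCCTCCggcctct
CYTOR (chr2:87455417-87455446, plus strand): atgagtcatctcgttccaatgagaatgaag
The first 7 are the hosts that fell in G2/SCR by the thresholds given below, the next 4 are further hosts with a pyrimidine run, and CYTOR was the 1 host that rose there. The reference had a start for 30 of the 34. SNHG6, SNHG9, SNHG15 and SNHG25 had none. A run at the first base was present in 7 of the 26 tested hosts with a start (26.9%), in 41 of 62 ribosomal protein genes (66.1%) and in 5.11% of the starts of all tested genes (4.04% of all promoters in the reference). Within 15 bases of the start such a run was found in 17 of the 26 hosts (65.4%) and in 43.3% of the starts of tested genes. The 7 hosts with a run at the first base (SNHG4, SNHG5, SNHG12, SNHG19, SNHG32, TAF1D and ZFAS1) had a median log2 fold change of -0.34 against SCR and -0.52 against WT. For the 19 without it the medians were -0.34 and -0.54. The difference between these sets was not tested. Both sets rest on annotated starts, and the starts used in these cells were not measured. For GAS5 the window shown lies outside the counted entry, which ends at chr1:173868882. A host without a run at the annotated start may thus still be a TOP gene.

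Most hosts were lower in G2 than in the controls. In G2/SCR, 7 hosts fell by at least 1.5-fold with an unadjusted p of at most 0.05 (limma), and 1 rose. The 7 were EPB41L4A-AS1, SNHG8, GAS5, SNHG19, SNHG31, SNHG10 and SNHG16, and the 1 that rose was CYTOR. As a background, 11.8% of all tested genes fell and 15.1% rose by these thresholds, while among the hosts 23.3% fell and 3.33% rose. Many changes were smaller than 1.5-fold. When the p was adjusted over all tested genes (Benjamini-Hochberg) and set at 0.05 with any fold, 18 hosts were lower and 4 higher in G2/SCR, where 23.4% of all tested genes were lower and 25.7% higher.

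The median log2 fold change of the 30 hosts in G2/SCR was -0.30, against -0.01 for all tested genes and -0.49 for the 78 tested genes of cytosolic ribosomal proteins, and 23 of the 30 were below 0. In G2/WT the median was -0.54, with 25 below 0, beside 0.00 for all genes and -0.80 for the ribosomal proteins. In SCR/WT it was -0.17, with 22 below 0, beside 0.01 and -0.32. G2/SCR and G2/WT share the G2 libraries, and SCR takes part in G2/SCR and SCR/WT, so these values are not independent of each other. With every library brought to the same total, the median of all tested genes moved to -0.10 against SCR, 0.19 against WT and 0.28 in SCR/WT, and the median of the hosts lay 0.28, 0.54 and 0.18 below it, as it did with the deposited scaling. This scaling moves every gene of a library by nearly the same amount, so the distance from the median is kept by construction. With that shift 11 hosts were below 0 in SCR/WT, beside 22 before it. SNHG4, SNHG5, SNHG8, SNHG10, SNHG15, SNHG16, SNHG20 and CYTOR were among those that turned. After the shift G2/SCR had 25 hosts below 0, beside 23 before it. G2/WT had 23, beside 25 before it, with SNHG32 among those that turned. In bulk RNA a lower value cannot be told apart as less RNA per cell or fewer cells that express the gene.

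**Figure D1:**
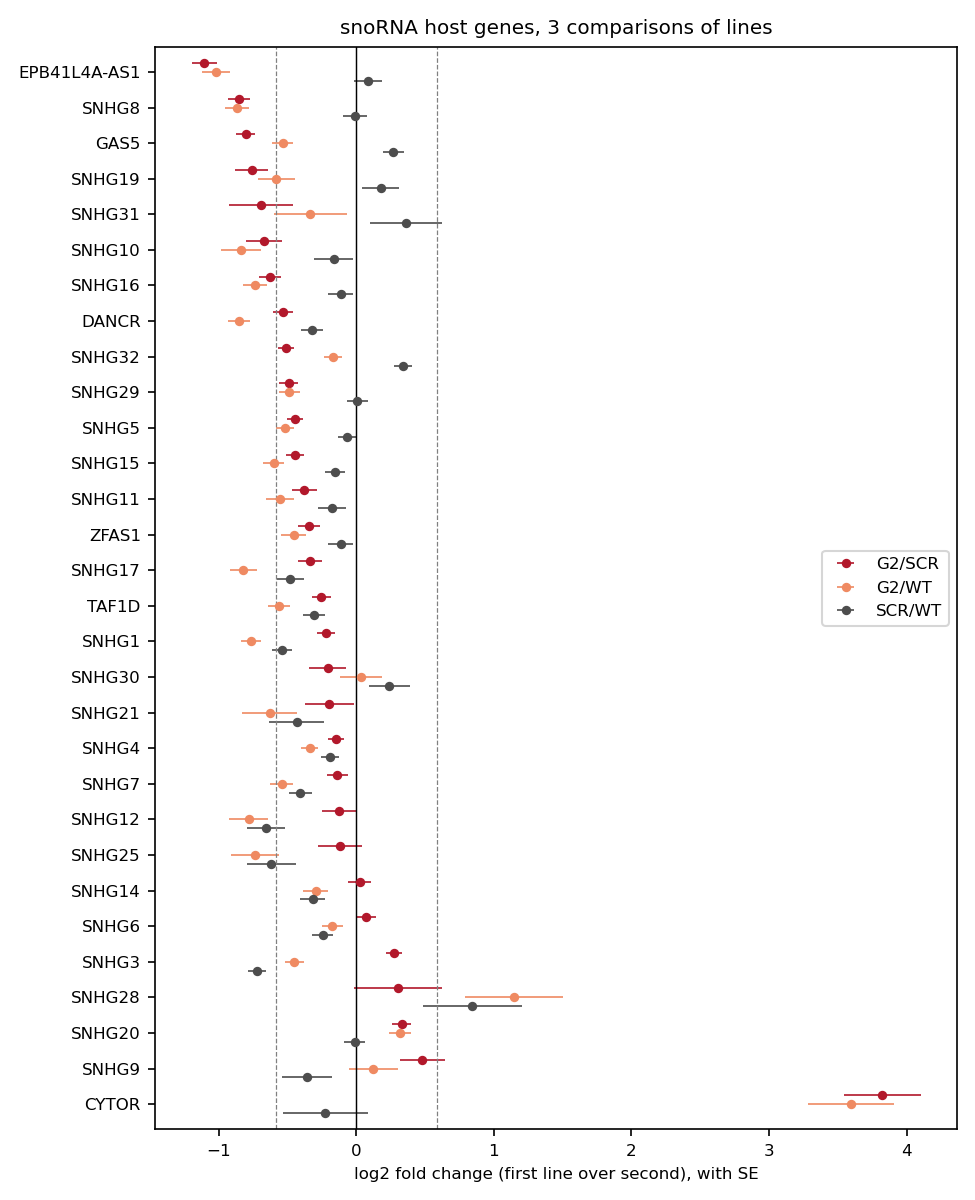
log2 fold change with its SE (limma, 8 libraries in 1 fit) of the 30 tested host genes in G2/SCR, G2/WT and SCR/WT, ordered by G2/SCR. The dashed lines mark the 1.5-fold threshold. 23 of 30 hosts lie below 0 in G2/SCR and CYTOR stands alone at 3.82.

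In G2/WT, 11 hosts fell and 2 rose by the same thresholds, with 12.2% of all tested genes falling and 17.7% rising. The 11 were EPB41L4A-AS1, SNHG8, DANCR, SNHG10, SNHG17, SNHG12, SNHG1, SNHG16, SNHG25, SNHG21 and SNHG15, and those that rose were CYTOR and SNHG28. At the adjusted p, 23 hosts were lower and 3 higher, beside 25.4% and 27.2% of all tested genes. Leaving out WT replicate 1 left 7 hosts lower in G2/WT and leaving out WT replicate 2 gave 19, so with 2 WT libraries this count rests on each of them. With all libraries at the same total, 6 hosts fell and 2 rose in G2/WT, 9 fell and 1 rose in G2/SCR, and 0 fell and 3 rose in SCR/WT (limma). Between the controls, 3 hosts fell in SCR/WT (SNHG3, SNHG12 and SNHG25) and SNHG28 rose, beside 5.63% and 10.7% of all tested genes. At the adjusted p these were 11 lower and 2 higher, beside 18.3% and 17.0% of all tested genes.

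Every G2 library was below all 5 control libraries for 19 of the 30 tested hosts and above them for 3, CYTOR, SNHG9 and SNHG20. Over all tested genes these shares were 19.7% below and 22.8% above. By the stricter rule of a call of the same direction against SCR and against WT, and none in SCR/WT, 4 hosts were lower in G2 and 1 was higher, beside 5.63% and 8.13% of all tested genes.

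EPB41L4A-AS1 showed the largest fall of the hosts in both G2 comparisons. It is a noncoding gene that starts beside EPB41L4A and holds SNORA13. Its normalized count was 1121, 1155 and 990 in G2, 2228, 2194 and 2610 in SCR, and 2370 and 2049 in WT. The G2 libraries lay below all controls, and the SCR and WT values overlapped. The mean was 53.6% lower in G2 than in SCR, with a log2 fold change of -1.10 ± 0.09 (SE, limma adjusted p = 8.87e-07), and -1.02 ± 0.10 against WT (limma adjusted p = 4.94e-06). SCR/WT was 0.08 ± 0.10. EPB41L4A, the coding gene on the other strand, had means of 747 ± 42.5 in the 3 G2, 890 ± 45.2 in the 3 SCR and 759 ± 227 in the 2 WT libraries (SD) and was not called in any comparison.

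SNHG8, the host of SNORA24, was next. The G2 libraries had 3006, 2929 and 2882, the SCR libraries 5251, 5250 and 5434, and the WT libraries 6049 and 4747. G2 was separated from both controls, which overlapped each other. The log2 fold change was -0.85 ± 0.08 (SE) against SCR (limma adjusted p = 2.18e-06) and -0.87 ± 0.09 against WT, and -0.01 ± 0.09 in SCR/WT.

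SNHG16 carries the 3 SNORD1 copies and was lower at a higher level of reads. It had 7926, 7917 and 7330 in G2, 11382, 12597 and 11766 in SCR, and 14482 and 11444 in WT. All G2 libraries were below all controls and the controls overlapped. G2 was 35.2% below SCR (log2 fold change -0.62 ± 0.08 SE, limma adjusted p = 4.15e-05) and 40.4% below WT. Both calls were near the threshold. Without SCR replicate 2 the G2/SCR value was -0.58, and the G2/WT value was -0.57 without WT replicate 1 and -0.55 at the same total, none of them called.

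SNHG10 is counted as 1 entry with SCARNA13, the small RNA in its intron. Its values were 293, 266 and 345 in G2, 485, 416 and 540 in SCR, and 581 and 493 in WT. The lines G2 and SCR did not overlap, and neither did G2 and WT. The log2 fold change was -0.67 ± 0.13 (SE) against SCR (limma adjusted p = 0.00104) and -0.84 ± 0.15 against WT. Without SCR replicate 3 the G2/SCR value was -0.58, just short of 1.5-fold. GLRX5, a mitochondrial iron-sulfur cluster protein gene on the other strand, had far more reads, with means of 6292 ± 176 in G2, 7678 ± 171 in SCR (SD, n = 3) and 10023 ± 977 in WT (SD, n = 2). It was also lowest in G2, at -0.29 ± 0.06 (SE) against SCR and -0.67 ± 0.07 against WT, where it was called, and its part in the values of SNHG10 was not tested.

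CYTOR, a noncoding RNA named for its effects on the cytoskeleton, moved the other way. It had 650.2, 668 and 538 in G2, 72.5, 28.2 and 37.8 in SCR, and 55.9 and 44.7 in WT. The G2 mean was 13.4-fold that of SCR and 12.3-fold that of WT, while SCR and WT overlapped. The log2 fold change in G2/SCR was 3.82 ± 0.28 (SE, limma adjusted p = 2.96e-07). MIR4435-2HG, a near-identical copy of CYTOR on the same chromosome, had 236, 253 and 263 in G2 and between 10.3 and 23.8 in the controls. Reads that match both copies cannot be assigned by the table, so how the rise is divided between them is uncertain.

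**Figure D2:**
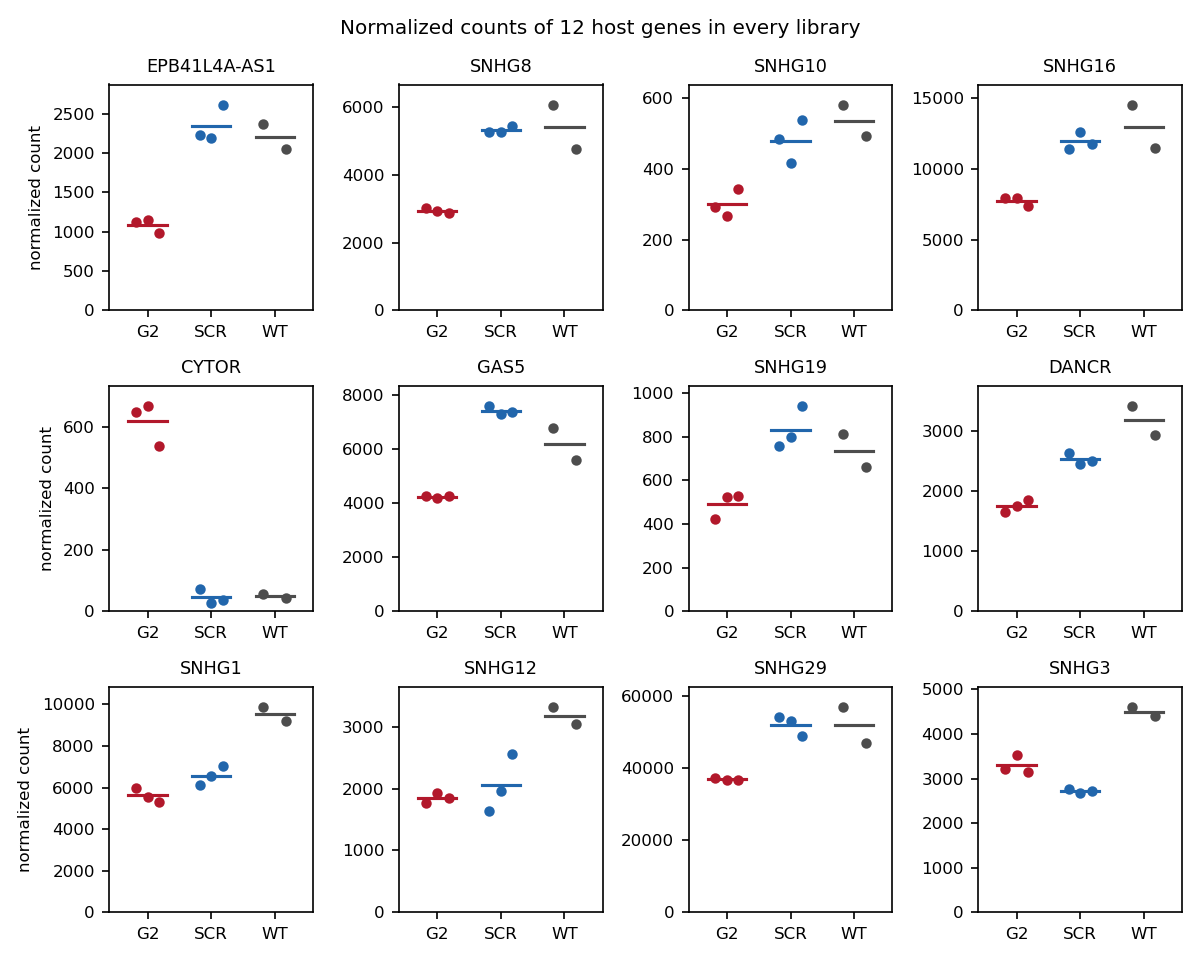
Normalized count in each library (points) and the mean of the line (bar) for 12 host genes in G2, SCR and WT, each on a linear axis from 0. In the top row every G2 library lies below every control, CYTOR is the only panel with G2 far above, and DANCR, SNHG1, SNHG12 and SNHG3 show WT above SCR.

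GAS5, SNHG19 and SNHG31 passed the thresholds in G2/SCR and not in G2/WT, and their SCR mean was above the WT mean. GAS5, named from its accumulation in growth-arrested cells, holds 11 snoRNAs in RefSeq. It had 4256, 4196 and 4272 in G2, 7583, 7280 and 7346 in SCR, and 6787 and 5573 in WT. The 3 lines did not overlap, in the order G2, WT, SCR. The log2 fold change was -0.80 ± 0.07 (SE) against SCR (limma adjusted p = 1.15e-06), -0.54 ± 0.08 against WT and 0.27 ± 0.08 in SCR/WT. G2 was thus also lower than WT at the adjusted p (9.32e-05, limma) but by less than 1.5-fold. Without WT replicate 2 the G2/WT value of GAS5 was -0.68, past that fold.

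SNHG19, the host of SNORD60, had 423, 522 and 529 in G2, 756, 799.6 and 941 in SCR, and 812 and 661 in WT. G2 was below all controls and the controls overlapped. Its log2 fold change was -0.76 ± 0.12 (SE) against SCR and -0.58 ± 0.13 against WT, at the edge of the threshold. SNHG31 was a low entry, with 77.2, 46.0 and 75.2 in G2, 87.8, 128 and 103 in SCR, and 79.5 and 83.4 in WT. Its highest G2 library was only just below the lowest control. The G2/SCR value of -0.69 ± 0.23 (SE, limma adjusted p = 0.0275) was no longer called without G2 replicate 2 (-0.46) or without SCR replicate 2 (-0.55).

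A second group was lower in G2/WT with SCR lying between or close to G2. DANCR, a host of SNORA26 known as an antagonist of differentiation, had 1654, 1762 and 1851 in G2, 2635, 2461 and 2507 in SCR, and 3418 and 2942 in WT. The lines were separated in the order G2, SCR, WT. Its log2 fold change was -0.85 ± 0.08 (SE) against WT (limma adjusted p = 3.32e-06), -0.53 ± 0.07 against SCR and -0.32 ± 0.08 in SCR/WT. DANCR missed the fold threshold in G2/SCR but not the adjusted p (7.27e-05, limma). At the same total its G2/SCR value was -0.62 and was called.

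SNHG1 holds SNORD22, needed for processing of ribosomal RNA, and 8 further snoRNAs. It had 5993, 5558 and 5308 in G2, 6132, 6535 and 7017 in SCR, and 9870 and 9217 in WT. All lines were apart, with a log2 fold change of -0.22 ± 0.07 (SE) in G2/SCR and -0.54 ± 0.07 in SCR/WT. In G2/WT the log2 fold change was -0.76 ± 0.07 (limma adjusted p = 3.84e-06), and it was -0.58 and not called at the same total.

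SNHG17, a host of the SNORA71 family, had 912, 897 and 1047 in G2, 1199, 1140 and 1268 in SCR, and 1818 and 1549 in WT. Its lines did not overlap either, and the log2 fold change was -0.82 ± 0.10 (SE) against WT and -0.34 ± 0.09 against SCR. SNHG15, the host of SNORA9, had 2058, 2245 and 2193 in G2, 2892, 2873 and 3069.9 in SCR, and 3478 and 3099 in WT. SNHG15 fell by 0.60 ± 0.07 (SE) on the log2 scale in G2/WT and by 0.44 ± 0.07 against SCR, with the lines again in the order G2, SCR, WT. The G2/WT call of SNHG15 was lost without G2 replicate 1 (-0.56), without WT replicate 1 (-0.52), at the same total (-0.42) and when rRNA entries were left out of that total (-0.48).

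SNHG12, SNHG25 and SNHG21 differed mainly from WT. SNHG12, with SNORA16A, SNORA44, SNORA61 and SNORD99, had 1760, 1932 and 1848 in G2, 1640.0, 1955 and 2553 in SCR, and 3315 and 3041 in WT. G2 and SCR overlapped, and both were below WT, with log2 fold changes of -0.78 ± 0.14 (SE) against WT and -0.66 ± 0.14 in SCR/WT. The SCR/WT call of SNHG12 was lost without SCR replicate 1 (-0.51), at the same total (-0.38) and with rRNA entries left out of it (-0.44). TRNAU1AP, the coding gene on the other strand of SNHG12, had means of 1979 in G2, 1726 in SCR and 2379 in WT. Its log2 fold change was -0.27 ± 0.07 (SE) against WT, -0.46 ± 0.07 in SCR/WT and 0.20 ± 0.07 in G2/SCR, none called. Its part in the values of SNHG12 was not tested. SNHG25, which holds SNORA50C and SNORD104, had 192, 220.1 and 271 in G2, 260.2, 214 and 263 in SCR, and 436 and 325 in WT. SNHG21, the host of SCARNA15, had 200.4, 207 and 216 in G2, 270.4, 179 and 278 in SCR, and 381 and 272 in WT. In both genes G2 overlapped SCR and lay below WT, and the SCR and WT libraries of SNHG21 overlapped. Without WT replicate 1, SNHG25 was -0.52 and SNHG21 was -0.39 against WT, and neither was called. At the same total they were -0.55 and -0.44, again not called. The SCR/WT call of SNHG25 (-0.62 ± 0.18, SE) was lost without WT replicate 1 (-0.41), without SCR replicate 2 (-0.52), at the same total (-0.34) and with rRNA entries left out of it (-0.41).

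Some hosts did not follow. SNHG3, whose SNORA73 copies (U17) act in ribosomal RNA processing, had 3224, 3521 and 3155 in G2, 2775, 2678 and 2733 in SCR, and 4605 and 4403 in WT. G2 was above SCR by 0.27 ± 0.06 (SE) on the log2 scale and below WT by 0.45 ± 0.07, and the entry includes RCC1. In SCR/WT it fell by 0.72 ± 0.07 (SE), a call lost at the same total (-0.45) and with rRNA entries left out of it (-0.51). SNHG28 was the lowest tested entry, at 32.9 to 45.1 in G2, 22.7 to 37.8 in SCR, and 16.1 and 17.9 in WT, and it is joined to VSIG8. Its log2 fold change was 1.15 ± 0.36 (SE) against WT (limma adjusted p = 0.0173) and 0.84 ± 0.36 in SCR/WT (limma adjusted p = 0.0878). The SCR/WT call of SNHG28 was lost without either WT library (0.77 and 0.91), without SCR replicate 1 (0.71) or 2 (0.75), with no filter, with only the 2 lines compared and with the replicate block (0.90). SNHG20, counted together with SEC14L1, was higher in all G2 libraries (1752 to 1887) than in the controls (1335 to 1517), by 0.33 ± 0.07 against SCR. SNHG9, the host of SNORA78, had 516 to 571 in G2, 285 to 478 in SCR, and 503 and 507 in WT, with only a narrow gap between G2 and WT.

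Of the 5 hosts with the highest mean values, SNHG16 is given above. The other 4 were not called in any comparison with the deposited scaling and all libraries. At the same total, SNHG32 was -0.60 in G2/SCR and 0.62 in SCR/WT, both called. Without WT replicate 2, SNHG29 was -0.62 and SNHG5 was -0.63 in G2/WT, past 1.5-fold. The values are not divided by length, so they rank the entries by reads and not by transcripts. SNHG29, with SNORD49A, SNORD49B and SNORD65, had 37403, 36797 and 36831 in G2, 54230, 53021 and 49018 in SCR, and 56992 and 47135 in WT. G2 was below every control, and SCR lay within the range of WT. The log2 fold change was -0.49 ± 0.07 (SE) against SCR and -0.49 ± 0.08 against WT (limma adjusted p = 7.88e-05 and 0.000198).

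SNHG5, the host of SNORD50A and SNORD50B, had 12835, 13051 and 12444 in G2, 17692, 17191 and 17364 in SCR, and 19766 and 16905 in WT, a log2 fold change of -0.45 ± 0.06 (SE) against SCR and -0.52 ± 0.07 against WT. SNHG32, with SNORD48 and SNORD52, had 8952, 8966 and 9203 in G2, 12684, 12502 and 13523 in SCR, and 10838 and 9547 in WT. It was -0.51 ± 0.06 against SCR, -0.17 ± 0.07 against WT and 0.34 ± 0.07 in SCR/WT, so the lines stood in the order G2, WT, SCR. SNHG4 was counted with MATR3, a nuclear matrix protein gene, and had 12918, 12736 and 12254 in G2, 13259, 14922 and 13828 in SCR, and 15456 and 16504 in WT. Its fold changes were small, -0.15 ± 0.06 against SCR and -0.34 ± 0.06 against WT.

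The remaining 7 tested hosts (SNHG6, SNHG7, SNHG11, SNHG14, SNHG30, TAF1D and ZFAS1) were not called in any comparison with the deposited scaling and all libraries. ZFAS1, SNHG11, TAF1D and SNHG7 were below every control in all G2 libraries, with G2/SCR values of -0.34, -0.38, -0.25 and -0.14. SNHG14, the long transcript across the Prader-Willi region that is counted with SNRPN, was 0.02 ± 0.08 (SE) against SCR and -0.29 ± 0.09 against WT. SNHG6 was 0.07 ± 0.07 and SNHG30 was -0.21 ± 0.14 against SCR.

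The hosts were also grouped by the kind of small RNA carried. The 10 hosts of box C/D snoRNAs alone had a median log2 fold change of -0.40 against SCR and -0.47 against WT, and the 11 hosts of box H/ACA snoRNAs alone had -0.38 and -0.56. The 4 hosts of both kinds (GAS5, SNHG12, SNHG25 and TAF1D) had -0.19 and -0.65. The 3 hosts of scaRNAs (SNHG10, SNHG20 and SNHG21) had -0.20 and -0.63. Outside these groups, CYTOR, which holds none, had 3.82 and 3.60, and SNHG28, whose small RNA is unnamed, had 0.30 and 1.15. These medians rest on few genes and were not tested.

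**Figure D3:**
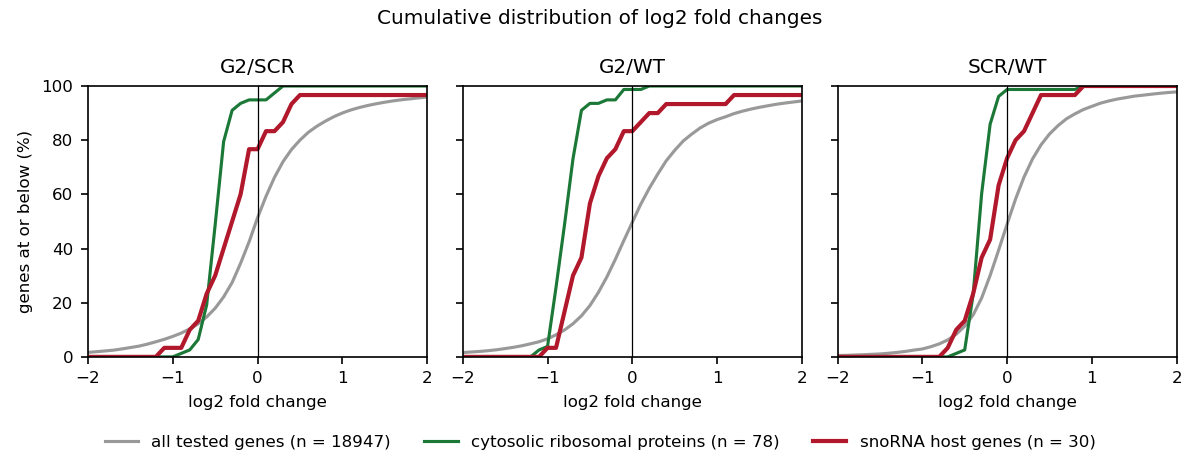
Share of genes (%) at or below each log2 fold change from -2 to 2 for all 18947 tested genes, the 78 tested ribosomal protein genes and the 30 tested host genes, in each comparison. The curve of the hosts lies between the other two around their medians, at -0.30 for the hosts and -0.49 for the ribosomal proteins in G2/SCR. CYTOR lies to the right of the axis in both G2 comparisons.

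Summed over the 34 entries, the hosts had 134099, 132899 and 130253 normalized counts in G2, 172026, 174170 and 172733 in SCR, and 199092 and 171587 in WT. The G2 sums were below all control sums. They were 0.200% to 0.206% of the library's normalized total in G2, 0.280% to 0.285% in SCR, and 0.241% and 0.258% in WT. SNHG29 alone made up a large part of these sums, and without it they were 93423 to 96696 in G2 and 117796 to 142100 in the controls. The sum of the 82 ribosomal protein entries was also lowest in G2, with 6.34% to 6.37% of the total in G2, 9.37% to 9.59% in SCR, and 9.18% and 10.3% in WT.

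**Figure D4:**
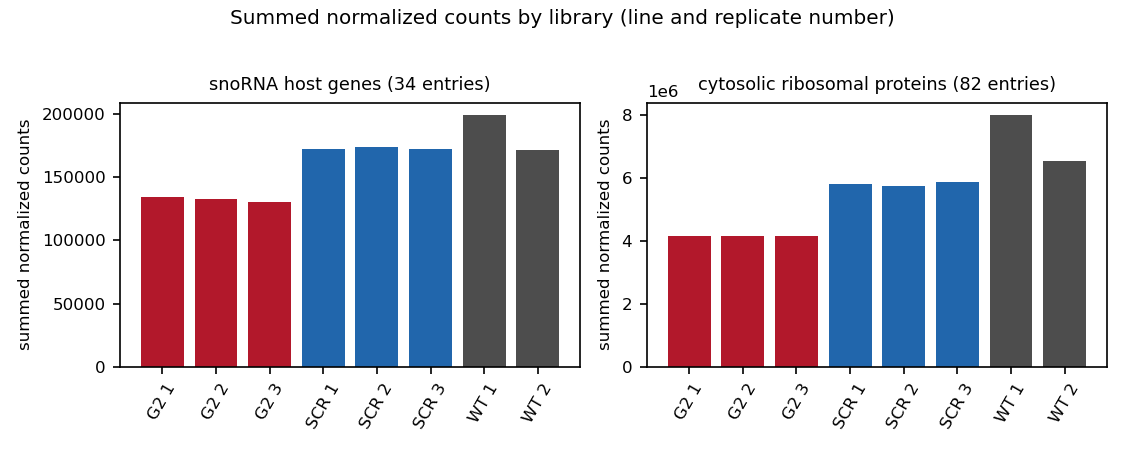
Summed normalized counts in each library for the 34 host gene entries and for the 82 ribosomal protein entries, bars from 0. The host sums are 130253 to 134099 in the G2 libraries and 171587 to 199092 in the controls.

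The table also lists snoRNAs as entries of their own, and 93 of them lie within a host, 55 of these within SNHG14. Mature snoRNAs carry no poly(A) tail, so in such libraries these values and reads of unspliced host RNA cannot be told apart. Of the 93 entries, 35 passed the filter, and they were low, with means from 10.1 to 433. In G2/SCR 7 fell and 2 rose by the thresholds used above, in G2/WT 20 fell and 0 rose, and in SCR/WT 11 fell and 0 rose (limma). At an unadjusted p of at most 0.05 with any fold, the entries that rose in G2/WT and in SCR/WT were also 0 (limma), beside 29.6% and 21.7% of all tested genes. The background shares are those given above for all tested genes. The 7 that fell in G2/SCR were SNORD75, SNORD77 and SNORD78 of GAS5, SNORA26 of DANCR, SNORD60 of SNHG19, SNORD99 of SNHG12 and SNORA71A of SNHG17.

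Among the 35 tested entries, 7 belonged to GAS5. Their median log2 fold change was -0.69 against SCR and -1.07 against WT, beside -0.80 and -0.54 for GAS5 itself. SNORD79 was the highest, with 327, 319 and 284 in G2, 377, 434 and 603 in SCR, and 481 and 643 in WT. SNORD77 had 53.6, 39.4 and 58.0 in G2, 94.9, 87.3 and 113 in SCR, and 93.1 and 119 in WT, so G2 lay below all controls for both.

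The snoRNAs of the hosts lower against both controls, whose sequences are given above, were low entries. SNORD1A and SNORD1B of SNHG16, at means of 15.2 and 14.8, had log2 fold changes of -0.05 ± 0.64 and -0.03 ± 0.58 (SE) against SCR and 0.80 ± 0.72 and 0.08 ± 0.65 against WT, and all lines overlapped. SNORA24 of SNHG8 was -0.30 ± 0.23 against SCR, not called and with overlapping libraries, and -0.82 ± 0.26 against WT, where it was called. SNORA13 of EPB41L4A-AS1 was at 0 to 5.65 in G2, 3.06 to 22.5 in SCR, and 29.8 and 20.8 in WT, and was called lower in G2/WT and not in G2/SCR. SCARNA13 has no entry apart from SNHG10.

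The values of host and small RNA differed in some further pairs. SNORD60 had 22.6, 29.6 and 9.67 in G2, 49.0, 56.3 and 49.9 in SCR, and 93.1 and 101 in WT. Its log2 fold change in SCR/WT was -0.90 ± 0.40 (SE, limma adjusted p = 0.101), beside 0.18 ± 0.13 for SNHG19, and the difference between snoRNA and host was not tested. SNORD48 rose in G2/SCR, with 64.9, 65.7 and 74.1 in G2 and 30.6, 42.2 and 40.8 in SCR, while its host SNHG32 was lower in G2. SNORD12 likewise rose in G2/SCR by 1.05 on the log2 scale, with ZFAS1 at -0.34, but its G2 and SCR libraries overlapped. Over all 35 entries the median log2 fold change was -0.30 against SCR, -0.88 against WT and -0.52 in SCR/WT. The share of normalized counts on ribosomal RNA entries, which also have no poly(A) tail, was 4.75% and 4.96% in WT and 0.384% to 0.587% in the other 6 libraries, and the entries of snoRNAs were not refitted without them. For the hosts, the count lower in G2/WT was 6 at the same total and 9 when rRNA entries were left out of that total, beside 11 with the deposited scaling. The count lower in SCR/WT was 0 in both (limma), and that of hosts higher in SCR/WT went from 3 to 1.

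**Figure D5:**
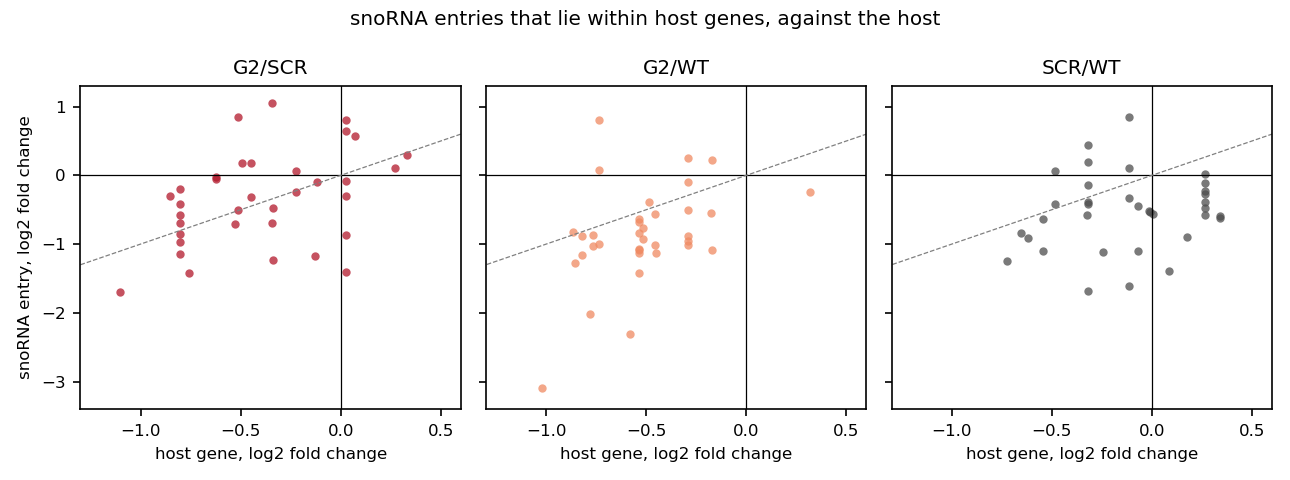
log2 fold change of each of the 35 tested snoRNA entries (vertical) against that of the host gene it lies in (horizontal), in each comparison, with the line of equal change dashed. Most entries are below 0 in G2/WT and SCR/WT, with medians of -0.88 and -0.52.

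Genes that work with snoRNAs and their hosts were looked up from lists. The snoRNP core proteins (FBL, NOP56, NOP58, SNU13, DKC1, NHP2, NOP10 and GAR1), which bind the snoRNAs, were all below 0 in G2/SCR with a median of -0.26, but 0 of 8 passed the fold threshold there by limma, edgeR or DESeq2. At an unadjusted p of at most 0.05 and any fold, 7 of 8 were lower in G2/SCR by limma, where 26.7% of all tested genes were lower and 28.3% higher by this rule. With the threshold, 6 of 8 fell in G2/WT and 1 of 8 in SCR/WT, beside 12.2% and 5.63% of all tested genes. NOP58, the core protein of box C/D particles with the smallest p, was 5428 ± 215 in G2, 7240 ± 282 in SCR (SD, n = 3) and 9254 ± 245 in WT (SD, n = 2). The 10 assembly factors had a median of -0.24 against SCR. By limma, edgeR and DESeq2 0 of them were called there. At an unadjusted p of at most 0.05 and any fold, 7 were lower and 2 higher by limma. In G2/WT 2 of the 10 fell, beside 12.2% of all tested genes. RUVBL2, an ATPase of the R2TP complex, was -0.54 ± 0.06 (SE) against SCR.

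Of the 14 nonsense-mediated decay factors, 0 were called in any comparison by limma, nor in G2/SCR by edgeR or DESeq2, and their median was -0.02 against SCR and -0.12 against WT. At an unadjusted p of at most 0.05 and any fold, 3 were lower and 4 higher in G2/SCR by limma. The smallest p was that of UPF3B, at -0.54 ± 0.06 (SE) against SCR (limma adjusted p = 1.65e-05). Of the 19 tested protein-coding hosts of snoRNAs, 2 fell in G2/SCR, the elongation factor genes EEF2 (-0.75 ± 0.05) and EEF1B2 (-0.62 ± 0.05). This share of 10.5% lay near the 11.8% of all tested genes. With any fold at an unadjusted p of at most 0.05, 11 of the 19 were lower and 2 higher in G2/SCR (limma). By this rule 26.7% of all tested genes were lower and 28.3% higher. The median of the coding hosts was -0.18. In G2/WT 8 of them fell and 1 rose, beside 12.2% and 17.7% of all tested genes. Of 13 further TOP genes outside the ribosome, 2 fell in G2/SCR, EIF4B (-0.62 ± 0.05) and EEF1G (-0.61 ± 0.06), with a median of -0.31. In G2/WT 5 of the 13 fell, beside 12.2% of all tested genes. The share that fell in G2/SCR was 15.4%, also near the 11.8% of all tested genes. With any fold, 9 of the 13 were lower and 3 higher there at an unadjusted p of at most 0.05 (limma). Among 7 regulators of TOP RNAs, EIF4EBP1, the translation repressor downstream of mTOR, was the 1 that fell in G2/SCR (-0.85 ± 0.08). This share of 14.3% rests on 1 gene and stands beside 11.8% of all tested genes. The median of these regulators was -0.18. With any fold, 5 of the 7 were lower and 0 higher in G2/SCR at an unadjusted p of at most 0.05 (limma). Of the 78 ribosomal protein genes, 20 fell in G2/SCR (25.6%), 71 in G2/WT (91.0%, beside 12.2% of all tested genes) and 1 in SCR/WT.

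The lines differed in other ways that move with these results. The recovered counts per library ran from 59804395 to 81080747, with no order by line. The 11 adrenergic neuroblastoma markers, all found, with TH at the floor of 9 recovered counts in G2, summed to between 107414 and 116838 normalized counts in G2, 209452 and 223880 in SCR, and 238914 and 253113 in WT. The 6 fibroblast and mesenchymal markers, all found and above the floor, summed to between 90712 and 93664 in G2, 9137 and 9405 in SCR, and 4341 and 4761 in WT. The sums of 4 glial markers were 145 to 230 in G2, 374 to 583 in SCR, and 425 and 440 in WT, so G2 was below every control here too, with GFAP at the floor in every library. Those of 5 leukocyte markers were 20.7 to 47.3 in G2, 40.8 to 65.8 in SCR, and 45.9 and 72.5 in WT, with PTPRC and CD3E at the floor in every library. Those of 5 epithelial markers were 185 to 196 in G2, 171 to 188 in SCR, and 118 and 155 in WT. The part of these differences in the change of the host genes was not tested.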

How the data were processed

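RNA-seq of polyadenylated RNA from 8 SH-SY5Y libraries (3 G2, 3 SCR, 2 WT) was analysed, grouped by the labels. The authors aligned the paired reads to hg38 with STAR 2.7.5a, counted them per FAST DB gene with featureCounts (Subread 1.5.0) and normalized them with DESeq2. The deposited signal is therefore a count divided by the library's size factor, not scaled to length. The file's columns of fold changes and p-values between the lines were not used. Host genes were found by symbol among 47591 entries. Values were fitted as log2(value + 1) with limma 3.58.1 (R 4.3.3, trend on the mean) with 1 mean per line, after genes whose mean over the libraries was under 10 had been removed (18947 were kept). Fold changes are on this log2(value + 1) scale, which understates the change of low genes. A gene was called when it changed by 1.5-fold or more with p at or below 0.05 before adjustment, and Benjamini-Hochberg adjusted p-values cover all tested genes. Whole counts were recovered by dividing each library by its step, and 100% came out whole within 0.05. This could not be checked for WT replicate 2, whose step is 0.993, so edgeR 4.0.16 and DESeq2 1.42.0 were run on recovered counts of G2/SCR only. Of the small recovered counts, 71.3% to 75.6% were multiples of 3, so a count is not a separate fragment, and precision from depth covers counting error only. Values in every library are given for PRPF40B, for hosts called in a G2 comparison and for the 5 hosts with the highest mean. From each list the 2 called genes of smallest p against SCR are named, or 1 gene where none was called. SNHG3, SNHG9 and SNHG20, the windows at gene starts of further hosts, MIR4435-2HG, EPB41L4A, TRNAU1AP and the snoRNA entries were chosen after their values were seen. The members and lists were chosen with earlier results of these data known.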

Additional observations from a re-analysis of the deposited data

How the results depend on the processing

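The fall of PRPF40B was called under the alternatives run for it, with 1 exception: at a fold change of at least 2 the G2/SCR value of -0.95 was not called. Pseudocounts of 0.5 and 5, no filter and TMM factors left the counts of called hosts as reported, as did edgeR and DESeq2 for G2/SCR. With all libraries at the same total, 6 hosts were lower in G2/WT, and in SCR/WT 0 were lower and 3 higher. When rRNA entries were also left out, an alternative chosen after seeing the data, 9 were lower in G2/WT, and in SCR/WT 0 were lower and 1 higher. A mean of at least 100 left 1 host higher in G2/WT and 0 higher in SCR/WT, with fewer hosts tested. A fold change of at least 2 left 1 host lower in G2/SCR, 1 lower in G2/WT, 0 lower and 0 higher in SCR/WT, and 2 called against both controls. The 1 host higher in SCR/WT became 0 with the adjusted p, with only the 2 lines compared, or without entries of more than 1 symbol, which also left 1 higher in G2/WT. Without CYTOR, which holds no annotated snoRNA, 0 hosts were higher in G2/SCR (limma) and 1 in G2/WT.

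Leaving out 1 library at a time gave 1 to 2 hosts higher in G2/SCR, 7 to 19 lower in G2/WT, both from the WT libraries, 0 to 1 higher in SCR/WT and 2 to 6 lower in SCR/WT. Hosts lower in G2/SCR numbered 5 without SCR replicate 2, and 6 without SCR replicate 3 or G2 replicate 2, beside 7 with all libraries. Hosts called against both controls and not in SCR/WT numbered 4 without SCR replicate 1, 2 or 3. They numbered 6 without G2 replicate 2 or 3, beside 5 with all libraries. This count also moved without either WT library, lower without WT replicate 1 and higher without WT replicate 2. With 1 WT library left, that library is assumed to vary like the others.

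Same-numbered G2 and SCR libraries had correlations of -0.13, 0.05 and 0.15 of their deviations from the line means. With so few libraries per line, these values cannot show whether the numbers pair the samples. With the replicate block, 13 hosts were lower in G2/WT, 0 were higher in SCR/WT, and 7 lower and 1 higher in G2/SCR.

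The alternatives were followed host by host for the tested hosts other than SNHG6, SNHG7, SNHG11, SNHG14, SNHG30, TAF1D and ZFAS1. Among the hosts followed, signs that turned were nearly all in SCR/WT, where the main values were small. Over all 30 tested hosts, the same total left 25 below 0 in G2/SCR, where the deposited scaling had 23. For G2/WT it left 23, where the deposited scaling had 25. At the same total, SCR/WT was 0.26 for SNHG8, 0.11 for SNHG10, 0.16 for SNHG16, 0.21 for SNHG5, 0.12 for SNHG15, 0.085 for SNHG4, 0.27 for SNHG20 and 0.046 for CYTOR, and G2/WT was 0.016 for SNHG32. With rRNA entries left out, SCR/WT was 0.20 for SNHG8, 0.046 for SNHG10, 0.099 for SNHG16, 0.14 for SNHG5, 0.054 for SNHG15, 0.20 for SNHG20 and 0.020 for SNHG4. SNHG20 was 0.00071 with TMM factors and 0.026 with the replicate block. Without 1 library at a time, SCR/WT ran from -0.021 to 0.19 for EPB41L4A-AS1, -0.19 to 0.16 for SNHG8, -0.28 to 0.057 for SNHG16, -0.13 to 0.14 for SNHG29, -0.18 to 0.043 for SNHG5, -0.050 to 0.042 for SNHG20 and -0.60 to 0.067 for CYTOR, and G2/SCR ran from -0.28 to 0.043 for SNHG12. The same-total scaling shifts all genes of a library together, which by itself turns values near 0. The cause of the other changes was not tested.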
